A study of Mus musculus with 9 samples.

Results

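The genes described here are the Rab small GTPases measured in oligodendroglial cells sorted from mouse brain. They were taken as every row whose gene symbol starts with Rab followed by a digit, which gave 54 of 11315 genes. Of these, 46 encode Rab GTPases and 8 encode regulators or effectors whose names begin the same way (Rab3gap1, Rab3gap2, Rab3ip, Rab3il1 and Rab11fip2 to Rab11fip5). RNA had been sequenced from fluorescence-sorted cells of C57BL/6 mice at postnatal day 60, with 3 libraries in each of 3 groups. PDGFRa-GFP cells are labelled as oligodendrocyte progenitors, PLP-GFP cells as pre-myelinating oligodendrocytes and NDRG1-eGFP cells as myelinating oligodendrocytes. A sort by reporter takes whatever cells carry the fluorescent protein, so each group is named below by its reporter. Whether the 3 libraries of a group came from separate animals is not in the labels, and the p-values then measure only the spread between these libraries.

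Rab GTPases are molecular switches that give each intracellular membrane its identity. Bound to GTP and anchored by a lipid tail, a Rab recruits effectors that bud, move, tether and fuse vesicles. Exchange factors switch it on, GTPase-activating proteins switch it off, and a GDP dissociation inhibitor returns it to the cytosol. Oligodendrocytes send large amounts of membrane and of myelin proteins such as proteolipid protein to the myelin sheath, partly through endosomes, and release exosomes from late endosomes.

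The deposited values are on a log2 scale with the same median in every library (10.57), and with no counts the depth is unknown. PDGFRa-GFP replicate 3 stood apart from the other libraries of its group, with a correlation across genes of 0.931 to 0.935 against 0.982 between the other pair. Mature oligodendrocyte markers were high in every library (log2 of the summed 8 genes, 22.4 to 22.7). The summed level of 7 progenitor markers was 9.86 to 13.1 in PDGFRa-GFP, 10.7 to 11.3 in PLP-GFP and 9.999 to 10.9 in NDRG1-eGFP, which overlap through PDGFRa-GFP replicate 3, the lowest of the 9. Of these markers, Pdgfra was at 5.47 to 7.54 in PDGFRa-GFP and lower in PLP-GFP (1.52 to 4.98). Vcan was at 5.27 to 8.87 in PDGFRa-GFP and lower in NDRG1-eGFP (2.05 to 5.21). In each of these comparisons that was the only 1 of the 7 called lower, and 0 were called higher. Pdgfra in NDRG1-eGFP (4.98 to 6.26) and Vcan in PLP-GFP (2.49 to 4.45) did not pass against PDGFRa-GFP. Matn4 lay the other way in PLP-GFP (8.49 to 9.54, against 7.97 to 8.63 in PDGFRa-GFP), without passing. So did Lhfpl3 in NDRG1-eGFP (7.71 to 7.77, against 6.43 to 7.62 in PDGFRa-GFP), also without passing. In NDRG1-eGFP against PLP-GFP, Pdgfra was called higher and Matn4 lower. Fibroblast-like markers were higher in PDGFRa-GFP (12.2 to 13.0) and NDRG1-eGFP (11.1 to 12.8) than in PLP-GFP (7.08 to 8.58). Microglial markers were at 10.4 to 11.6 in PDGFRa-GFP, 10.2 to 10.8 in PLP-GFP and 11.4 to 12.2 in NDRG1-eGFP. The lowest value of any gene in a library was 0.29 to 0.32, so a value above 0 does not show that a marker was present. In PLP-GFP replicate 1, Col3a1 and Dcn were both at 1.52. Immediate early genes were at 13.6 to 17.6, 13.5 to 13.7 and 14.6 to 17.8 in the same order. In a sorted population, a change in the make-up of the cells and a change in RNA per cell cannot be told apart.

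The Rab GTPases were abundant genes in all 3 groups. Of the 46, 32 (69.6%) lay above the median of all genes, and the median of their mean log2 values was 11.71 against 10.57 for all genes. Per kilobase of transcript the highest level was that of Rab31, an endosomal Rab with known expression in oligodendrocytes, at a mean log2 value of 13.82. Rab2a, which acts between the endoplasmic reticulum and the Golgi, followed at 13.57 per kilobase, and Rab10, which acts between the Golgi and the plasma membrane, at 13.08. The lowest levels per kilobase were those of Rab44 (4.42), Rab3d (4.83) and Rab36 (5.28). The plot of levels per transcript length shows that every compartment held both high and low genes.

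**Figure D1:**
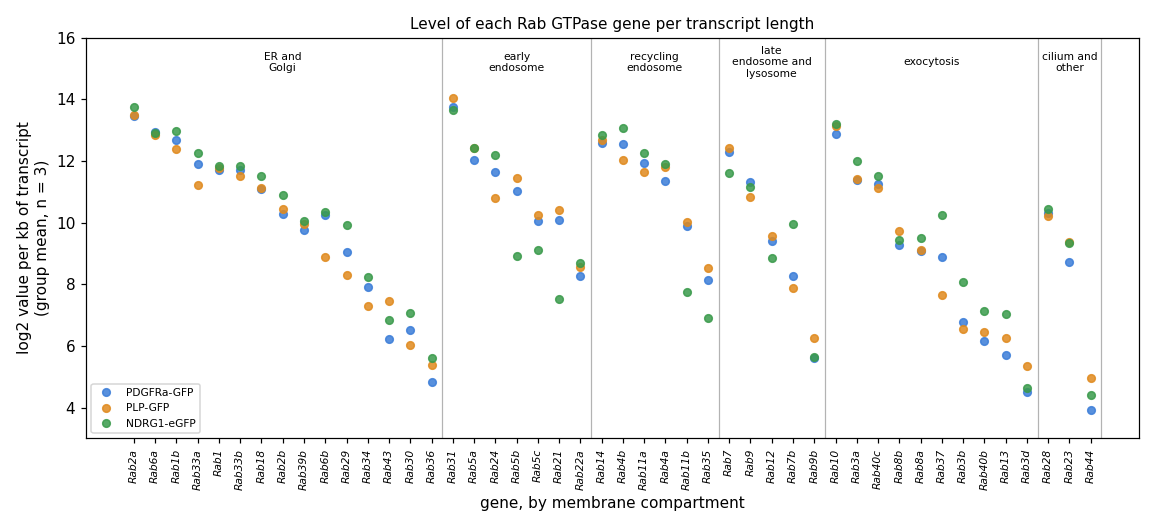
Group mean of the log2 value per kilobase of transcript (vertical axis) for each of the 46 Rab GTPase genes (horizontal axis, ordered by level within each membrane compartment). Each coloured point is the mean of 3 libraries; Rab31, Rab2a and Rab10 are the highest and Rab44, Rab3d and Rab36 the lowest.

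NDRG1-eGFP against PLP-GFP, the labelled myelinating against the labelled pre-myelinating cells, was the comparison in which most Rab genes differed. By limma at an adjusted p under 0.05, NDRG1-eGFP had 14 of the 46 Rab GTPases higher and 8 lower, and 24 did not pass. Of all genes, 26.1% were called higher and 22.2% lower in this comparison, so the members' counts were near the background. In 21 Rab GTPases all 3 NDRG1-eGFP libraries were above all 3 PLP-GFP libraries and in 8 all were below, where 36.6% and 29.8% of all genes did so. The median log2 fold change was 0.23 over the Rab GTPases and 0.08 over all genes. The lower genes were mostly endosomal (Rab5b, Rab5c, Rab21, Rab31, Rab11b, Rab35 and Rab7, with Rab43 of the Golgi). The 14 higher genes were 7 of the endoplasmic reticulum and Golgi, 3 exocytic, 2 recycling, Rab24 of early endosomes and Rab7b of late endosomes. The heat map of the 46 genes shows the 7 lower endosomal genes below their own means in all 3 NDRG1-eGFP libraries. Of the 18 endosomal Rabs, 4 were higher and 7 did not pass.

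**Figure D2:**
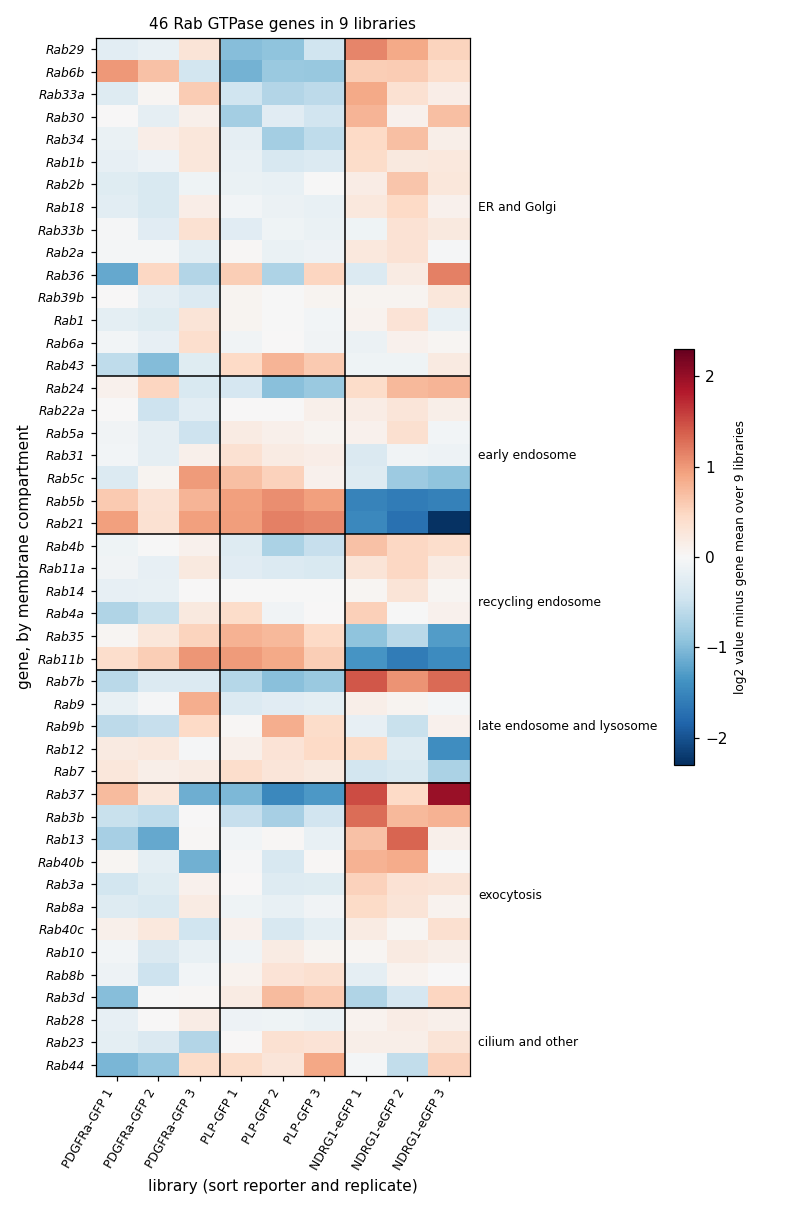
Log2 value of each of the 46 Rab GTPase genes (rows, by membrane compartment and then by fold change) in each of the 9 libraries (columns, by sort reporter), shown as the difference from the gene's mean over all libraries. Red is above and blue below that mean; Rab5b, Rab21, Rab35 and Rab11b are blue in the 3 NDRG1-eGFP libraries and red or near 0 in the other 6.

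Across all genes, short transcripts had higher values in the NDRG1-eGFP libraries than in the PLP-GFP ones. The smooth trend of the values at a transcript length of 1 kb was 0.26 to 0.48 in the NDRG1-eGFP libraries and -0.50 to -0.23 in the PLP-GFP libraries. With that trend removed from each library, 9 Rab GTPases were higher and 10 lower, against 14% and 16.4% of all genes, and their median was 0.07. Removal of the trend ended the call of 11 of the 54 members and gave a call to 8 that had not passed, which are named with their groups below. Beside this, 6 of 7 microglial, 5 of 6 fibroblast-like, 6 of 8 immediate early and 3 of 8 mature oligodendrocyte genes measured (Mog, Mag and Opalin) were called higher in NDRG1-eGFP and none of them lower, and their part in the Rab results was not tested. The plot of fold changes by compartment shows both sets of values.

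**Figure D3:**
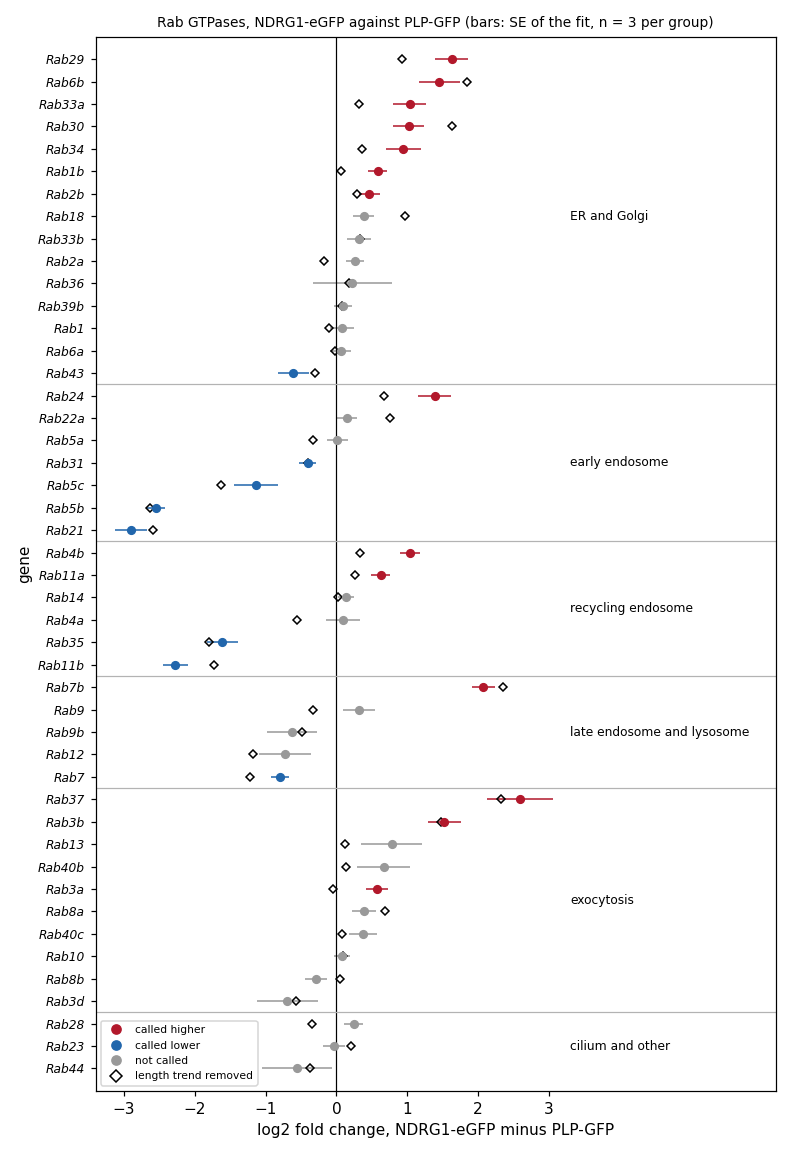
Log2 fold change of NDRG1-eGFP against PLP-GFP (horizontal axis) for the 46 Rab GTPases (rows, by compartment). Circles with bars are the fit to the deposited values and its SE, coloured by call; open diamonds are the same value after removal of each library's length trend. Rab21, Rab5b, Rab11b and Rab35 lie far left and Rab37 and Rab7b far right by both.

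Rab5a, Rab5b and Rab5c are the near-identical switches that drive fusion of early endosomes, and they did not move together. Rab5b stood at 13.09, 13.21 and 13.09 in the 3 PLP-GFP libraries, at 12.75, 12.46 and 12.92 in PDGFRa-GFP, and at 10.60, 10.53 and 10.59 in NDRG1-eGFP. All 3 NDRG1-eGFP values were below all 6 others. The log2 fold change of Rab5b was -2.56 ± 0.13 (SE, 5.88-fold lower, adjusted p = 7.72e-07) against PLP-GFP and -2.14 ± 0.13 (adjusted p = 1.72e-06) against PDGFRa-GFP. Rab5c was at 11.48, 11.32 and 10.89 in PLP-GFP and 10.48, 9.95 and 9.86 in NDRG1-eGFP, without overlap (log2 fold change -1.13 ± 0.31, adjusted p = 0.0127). In PDGFRa-GFP, Rab5c ranged from 10.47 to 11.77, overlapping NDRG1-eGFP, and that difference of -0.93 ± 0.31 did not pass (adjusted p = 0.0575), though it did with the length trend removed (-1.22, adjusted p = 0.0135). Rab5a, the most abundant of the family, was at 13.74, 13.65 and 13.59 in PLP-GFP and 13.63, 13.91 and 13.48 in NDRG1-eGFP. Those ranges overlapped, and the difference of 0.01 ± 0.14 (adjusted p = 0.951) turned direction under another scaling.

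The makeup of the Rab5 family followed from these values. Per kilobase of transcript, Rab5a made up 57.5% ± 1.3 (SD, n = 3) of the summed Rab5 signal in PLP-GFP, 56.7% ± 9.1 in PDGFRa-GFP and 84.0% ± 2.8 in NDRG1-eGFP. Rab5b made up 29.6% ± 1.8, 28.2% ± 3.0 and 7.3% ± 1.1 in the same order. The log2 gap of Rab5a over Rab5b was 2.90 to 3.39 in the NDRG1-eGFP libraries and 0.14 to 0.87 in the other 6, so the ranges did not overlap. The shares depend on the transcript lengths used. Both the shares and the gap are limited by the sequence that Rab5b shares with a pseudogene, described below.

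Rab21, which directs endocytosis of integrins, had the most negative fold change of the 46 genes. It was at 12.51, 12.72 and 12.66 in PLP-GFP, at 12.50, 11.91 and 12.50 in PDGFRa-GFP and at 10.07, 9.83 and 9.27 in NDRG1-eGFP. The NDRG1-eGFP libraries were below all others, with a log2 fold change of -2.90 ± 0.22 (7.48-fold lower, adjusted p = 9.03e-06) against PLP-GFP and -2.58 ± 0.22 (adjusted p = 2.36e-05) against PDGFRa-GFP. Rab31, the gene with the highest level per kilobase, was at 15.96, 15.80 and 15.78 in PLP-GFP, 15.28, 15.53 and 15.50 in NDRG1-eGFP and 15.55, 15.41 and 15.73 in PDGFRa-GFP. Against PLP-GFP it was lower by a small margin (log2 fold change -0.41 ± 0.12, adjusted p = 0.0207). That call was lost without PLP-GFP replicate 1, PLP-GFP replicate 2 or NDRG1-eGFP replicate 1, with adjusted p up to 0.0807. Rab22a, its close relative at early endosomes, did not pass in any comparison of the deposited values. With the length trend removed it was called higher in NDRG1-eGFP against PLP-GFP (0.76, adjusted p = 0.00379, in place of 0.14) and against PDGFRa-GFP (0.69, adjusted p = 0.0116, in place of 0.43).

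Rab24, of autophagosomes and endosomes, was the early endosomal gene that was higher. It was at 11.39, 10.80 and 10.91 in PLP-GFP and 12.19, 12.52 and 12.55 in NDRG1-eGFP (log2 fold change 1.39 ± 0.23, adjusted p = 0.000922), and PDGFRa-GFP was at 11.87, 12.27 and 11.42. After removal of the length trend the change was 0.67 and did not pass (adjusted p = 0.111). The exons of Rab24 overlap Prelid1 on the opposite strand over 62.4% of their length. Prelid1 was also higher (0.71 ± 0.15, adjusted p = 0.0032), and whether reads were counted by strand is not given in the sources used here, so the value of Rab24 is uncertain.

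Among recycling Rabs, Rab11a and Rab11b went opposite ways. Both act in the slow return of cargo from the recycling endosome to the plasma membrane. Rab11b was at 12.80, 12.70 and 12.40 in PLP-GFP, at 12.24, 12.40 and 12.85 in PDGFRa-GFP and at 10.47, 10.22 and 10.37 in NDRG1-eGFP. Rab11a was at 12.93, 12.87 and 12.82 in PLP-GFP, at 13.11, 12.99 and 13.40 in PDGFRa-GFP and at 13.48, 13.65 and 13.37 in NDRG1-eGFP. Against PLP-GFP neither gene overlapped between the groups, with Rab11b low and Rab11a high in NDRG1-eGFP. Rab11b fell by 2.28 ± 0.18 on the log2 scale (4.85-fold, adjusted p = 1.0e-05) and Rab11a was higher by 0.63 ± 0.13 (adjusted p = 0.00375). Against PDGFRa-GFP, Rab11b was again lower (-2.14 ± 0.18, adjusted p = 1.72e-05) and Rab11a did not pass. Once the length trend was removed Rab11a no longer passed against PLP-GFP (0.27, adjusted p = 0.073), while Rab11b did (-1.73, adjusted p = 0.000295).

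Rab11a made up 95.8% ± 0.7 (SD, n = 3) of the Rab11 signal per kilobase in NDRG1-eGFP, 75.5% ± 2.0 in PLP-GFP and 80.6% ± 1.8 in PDGFRa-GFP. The log2 sum of the pair per kilobase was 12.34 ± 0.13 in NDRG1-eGFP, 12.05 ± 0.09 in PLP-GFP and 12.25 ± 0.23 in PDGFRa-GFP. The low Rab11b thus stood beside a summed level per kilobase that was not lower in NDRG1-eGFP. That sum and these shares depend on the lengths used, 6109 bases for Rab11b and 2336 for Rab11a, which give Rab11b less weight. The sum without division by length is not given. They are also limited by the sequence that Rab11b shares with a pseudogene, described below.

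Rab35, a Rab of fast recycling that is known in oligodendroglial cells for its part in exosome release, was also low in NDRG1-eGFP. It was at 10.15, 10.10 and 9.81 in PLP-GFP, 9.40, 9.61 and 9.86 in PDGFRa-GFP and 8.42, 8.74 and 8.07 in NDRG1-eGFP. The NDRG1-eGFP libraries were below all 6 others, and PLP-GFP and PDGFRa-GFP overlapped. The log2 fold change was -1.61 ± 0.22 (adjusted p = 0.000331) against PLP-GFP and -1.21 ± 0.22 (adjusted p = 0.00411) against PDGFRa-GFP. Rab4b, of fast recycling, was higher, at 13.49, 13.28 and 13.21 in NDRG1-eGFP against 12.51, 12.08 and 12.27 in PLP-GFP (log2 fold change 1.04 ± 0.14, adjusted p = 0.000329). With the length trend removed it was 0.33 and did not pass (adjusted p = 0.0514), and the exons of Rab4b overlap other annotated genes on the same strand over 65.0% of their length, so its value is uncertain. Its paralog Rab4a was at 12.61, 12.10 and 12.20 in PLP-GFP and 12.72, 12.18 and 12.28 in NDRG1-eGFP, and its difference of 0.09 ± 0.25 did not pass (adjusted p = 0.779). Rab4a turned and was called lower with the length trend removed (-0.56, adjusted p = 0.0285). Rab14 did not pass in any comparison.

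In the late endosome, Rab7 and Rab7b also went opposite ways. Rab7 drives fusion of late endosomes with lysosomes, and Rab7b carries cargo from late endosomes to the Golgi. Rab7 was at 13.62, 13.49 and 13.45 in PLP-GFP, at 13.48, 13.35 and 13.40 in PDGFRa-GFP and at 12.80, 12.86 and 12.49 in NDRG1-eGFP. Rab7b was at 10.21, 9.90 and 10.01 in PLP-GFP, at 10.25, 10.55 and 10.56 in PDGFRa-GFP and at 12.29, 11.90 and 12.16 in NDRG1-eGFP. All 3 NDRG1-eGFP libraries were below the other 6 for Rab7 and above the other 6 for Rab7b. Against PLP-GFP the log2 fold change was -0.80 ± 0.12 for Rab7 (adjusted p = 0.000697) and 2.08 ± 0.16 for Rab7b (4.22-fold higher, adjusted p = 9.46e-06). Against PDGFRa-GFP it was -0.69 ± 0.12 for Rab7 (adjusted p = 0.00418) and 1.67 ± 0.16 for Rab7b (adjusted p = 5.39e-05).

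Rab7b made up 4.1% ± 0.3 (SD, n = 3) of the Rab7 signal per kilobase in PLP-GFP, 5.9% ± 0.9 in PDGFRa-GFP and 24.2% ± 4.0 in NDRG1-eGFP. Rab7 was still the larger part in every library. These shares depend on the lengths used, 2159 bases for Rab7 and 4498 for Rab7b, and are limited by the sequence that Rab7 shares with a pseudogene, described below. Rab12, which carries cargo from recycling endosomes to lysosomes, ranged widely in NDRG1-eGFP (10.76, 10.02 and 8.89) and did not pass against PLP-GFP (-0.72 ± 0.37, adjusted p = 0.127). It was called lower with the length trend removed (-1.18, adjusted p = 0.035). Rab9 and Rab9b, of late endosome to Golgi transport, did not pass in any comparison.

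**Figure D4:**
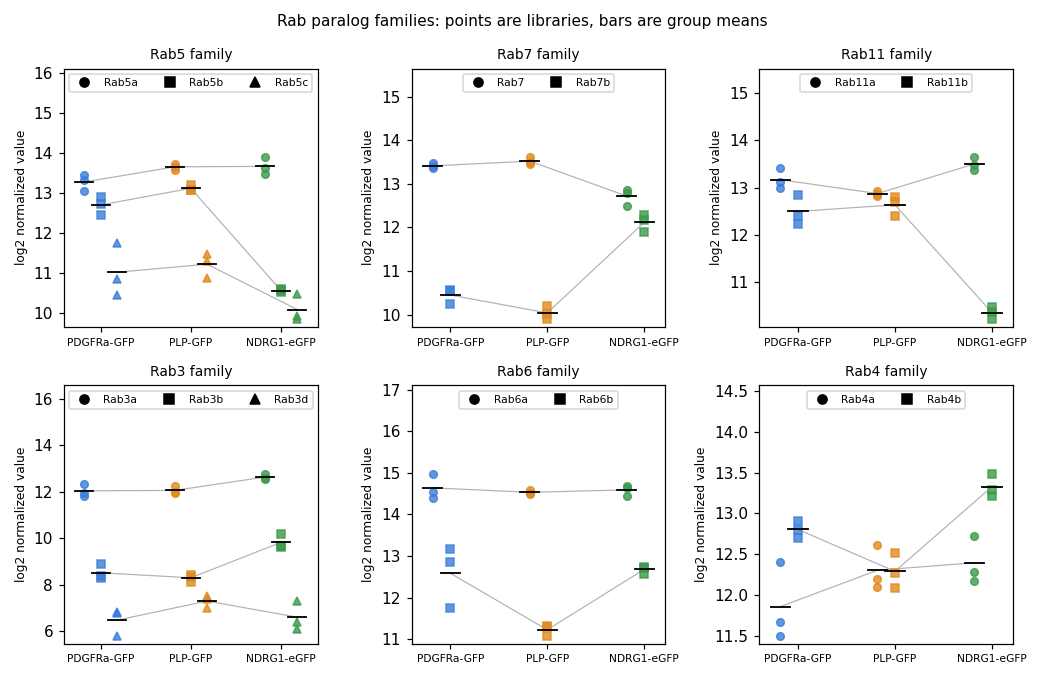
Log2 normalized value (vertical axis) of the members of 6 Rab families in the 3 sorts (horizontal axis). Points are libraries and black bars are group means; Rab11a and Rab11b, and Rab7 and Rab7b, go opposite ways in NDRG1-eGFP, and Rab5b falls while Rab5a overlaps PLP-GFP.

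Of the genes that were low in NDRG1-eGFP, Rab5b, Rab7 and Rab11b each have a processed pseudogene with long stretches of identical sequence. Short reads from such a stretch match both places, and how they were counted is not given in the sources used here. Of the 50-base windows of their coding sequences, 67.8% for Rab5b, 53.0% for Rab7 and 91.7% for Rab11b were found in the pseudogene too. In each case the shared stretch crosses an exon junction, and 1 such window is shown for each gene from the GENCODE M21 transcript of build GRCm38 (mm10), in lower case throughout because every base is shared. The coding bases of each window lie in neighbouring exons, so its genome coordinates include the intron between them.
Rab5b and Gm13991 (chr10:128682901-128683198, minus strand, and chr2:116527843-116528490, minus strand): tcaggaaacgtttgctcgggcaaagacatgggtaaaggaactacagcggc
Rab7 and Rab7-ps1 (chr6:88004271-88005013, minus strand, and chr9:54824661-54825282, minus strand): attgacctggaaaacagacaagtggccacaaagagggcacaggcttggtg
Rab11b and Rab11b-ps2 (chr17:33748586-33748911, minus strand, and chr19:7398424-7399077, minus strand): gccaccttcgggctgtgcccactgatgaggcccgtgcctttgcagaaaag
Among all genes, those with over 5% of transcript windows shared with another locus were called lower in NDRG1-eGFP against PLP-GFP in 48.2% of 988 cases, against 19.7% of 10285 genes with less. Against PDGFRa-GFP the shares were 46% and 6.95%. Windows shared over the whole transcript made up 9.80% for Rab5b, 11.2% for Rab7 and 9.47% for Rab11b, and the part of this in their low values was not tested. Rab21, Rab35 and Rab5c shared no 50-base window with another locus and were low as well. Rab8b and Rab9, the other Rab GTPases above 5%, did not pass in any comparison. With the genes above 5% left out of the fit, 5 Rab GTPases were called lower against PLP-GFP in place of 8. Rab5b, Rab7 and Rab11b are themselves left out there, so the fall in the count is no test of their calls.

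Of the 15 Rabs of the endoplasmic reticulum and Golgi, 7 were higher and 1 lower in NDRG1-eGFP against PLP-GFP, where 26.1% and 22.2% of all genes were, and 7 did not pass (0.06 to 0.39). Rab29, a Rab of the trans-Golgi network that recruits the kinase Lrrk2, was at 8.41, 8.46 and 8.93 in PLP-GFP, 9.15, 9.22 and 9.68 in PDGFRa-GFP and 10.52, 10.27 and 9.90 in NDRG1-eGFP. Its NDRG1-eGFP values were above all others (log2 fold change 1.63 ± 0.23 against PLP-GFP, adjusted p = 0.000463). Rab6b, the neural form of the Golgi Rab6, was at 11.08, 11.31 and 11.28 in PLP-GFP and 12.72, 12.74 and 12.57 in NDRG1-eGFP (1.45 ± 0.29, adjusted p = 0.00259). In PDGFRa-GFP, Rab6b was at 13.17, 12.84 and 11.74, so the PLP-GFP group was the low one. Rab6a, the general form, was at 14.53 ± 0.05 (SD, n = 3) in PLP-GFP and 14.59 ± 0.12 in NDRG1-eGFP, a difference of 0.06 ± 0.15 (adjusted p = 0.768) whose direction turned under another scaling.

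The other Golgi genes that were higher were Rab33a (1.03 ± 0.24), Rab30 (1.02 ± 0.22), Rab34 (0.95 ± 0.24), Rab1b (0.58 ± 0.14) and Rab2b (0.46 ± 0.15). Of these, Rab1b and Rab2b act between the endoplasmic reticulum and the Golgi. After removal of that trend, Rab29, Rab6b and Rab30 were still higher (0.92, 1.85 and 1.64), while Rab33a, Rab34, Rab1b and Rab2b no longer passed. Rab18, of the endoplasmic reticulum and lipid droplets, was then called higher (0.97, adjusted p = 0.00452, in place of 0.39 with an adjusted p of 0.0527). Rab2b lost its call without PLP-GFP replicate 1, PLP-GFP replicate 2 or NDRG1-eGFP replicate 2 (adjusted p up to 0.0926). Its exons overlap Tox4 and another gene on the opposite strand over 64.0% of their length, and Tox4 was lower (-0.77 ± 0.14, adjusted p = 0.00145), so the value of Rab2b is uncertain.

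Rab43, a Golgi Rab, was the gene of this group that was lower. It was at 9.52, 9.82 and 9.64 in PLP-GFP, 8.96, 8.95 and 9.25 in NDRG1-eGFP and 8.47, 8.06 and 8.77 in PDGFRa-GFP, so PLP-GFP was the high group. The log2 fold change against PLP-GFP was -0.61 ± 0.22 (adjusted p = 0.0416). That call was lost without any of the PLP-GFP libraries and without NDRG1-eGFP replicate 1 or 2 (adjusted p up to 0.147). It was also lost with the length trend removed (-0.30, adjusted p = 0.303). The exons of Rab43 overlap another annotated gene on the same strand over 75.4% of their length, so its value is uncertain.

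Against PLP-GFP, 3 of the 10 exocytic Rabs were higher and none was lower, and the 7 that did not pass ranged from -0.69 to 0.78. One of these, Rab8a, which carries cargo to the plasma membrane and the cilium, was called higher with the length trend removed (0.68, adjusted p = 0.0197, in place of 0.39). Rab37, of secretory granules, had the largest positive fold change of the 46 genes. It was at 9.26, 8.80 and 8.97 in PLP-GFP and at 11.80, 10.75 and 12.27 in NDRG1-eGFP (log2 fold change 2.60 ± 0.47, 6.05-fold higher, adjusted p = 0.00148). In PDGFRa-GFP it was at 11.02, 10.55 and 9.17, which overlaps both other groups, and neither difference from PDGFRa-GFP passed (adjusted p = 0.0892 and 0.0627).

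Rab3a and Rab3b are Rabs of regulated exocytosis, and Rab3a is known in oligodendrocytes. Rab3b was at 8.34, 8.12 and 8.43 in PLP-GFP, 8.36, 8.30 and 8.88 in PDGFRa-GFP and 10.16, 9.62 and 9.67 in NDRG1-eGFP. It was above all others in the 3 NDRG1-eGFP libraries (1.52 ± 0.23 against PLP-GFP, adjusted p = 0.000658, and 1.30 ± 0.23 against PDGFRa-GFP, adjusted p = 0.00415). Rab3a, which made up 93.1% ± 0.6 (SD, n = 3) or more of the Rab3 signal per kilobase in each group, was at 12.25, 11.94 and 11.96 in PLP-GFP and 12.77, 12.57 and 12.54 in NDRG1-eGFP. Its log2 fold change of 0.58 ± 0.16 passed (adjusted p = 0.0132), but not without PLP-GFP replicate 2, PLP-GFP replicate 3 or NDRG1-eGFP replicate 1 (adjusted p up to 0.0572). With the length trend removed the direction of Rab3a turned (-0.046, adjusted p = 0.76).

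Rab10 stayed at a high level in every library (14.57 to 15.10) and did not pass in any comparison. Rab40c, a SOCS-box Rab known in oligodendrocytes that serves as an adaptor of a ubiquitin ligase, was at 12.45 ± 0.24 (SD, n = 3) in PLP-GFP, 12.82 ± 0.17 in NDRG1-eGFP and 12.59 ± 0.38 in PDGFRa-GFP, and did not pass either. The scarce Rab3d lay between 5.81 and 7.52 in the 9 libraries, and the Golgi gene Rab36 between 5.82 and 8.16. Neither passed in any comparison. Rab27a and Rab27b, the Rabs of secretory granules and exosome release, were not analysed here.

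The remaining 3 Rabs include those of the cilium. Rab23, which acts in the cilium and in Hedgehog signalling, was at 11.02, 10.91 and 10.58 in PDGFRa-GFP, 11.26, 11.61 and 11.56 in PLP-GFP and 11.39, 11.38 and 11.55 in NDRG1-eGFP. It was higher in both other groups than in PDGFRa-GFP, by 0.64 ± 0.16 in PLP-GFP (adjusted p = 0.0254) and 0.60 ± 0.16 in NDRG1-eGFP (adjusted p = 0.0236). The PLP-GFP call was lost without PDGFRa-GFP replicate 2, PLP-GFP replicate 2 or PLP-GFP replicate 3 (adjusted p up to 0.124), and the NDRG1-eGFP call without any of the NDRG1-eGFP libraries (adjusted p up to 0.0704). Rab28, also of the cilium, lay between 10.90 and 11.25 in all 9 libraries and did not pass. Its difference in NDRG1-eGFP against PLP-GFP turned from 0.24 to -0.34 with the length trend removed and was called lower (adjusted p = 0.0354). Rab44, with the lowest level per kilobase, lay between 5.41 and 7.34 and did not pass.

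The compartments can be set side by side by their counts in NDRG1-eGFP against PLP-GFP, where 26.1% of all genes were higher and 22.2% lower. Of the 18 Rabs of early, recycling and late endosomes, 4 were higher and 7 lower, with a median log2 fold change of -0.20. Of the 15 Rabs of the endoplasmic reticulum and Golgi, 7 were higher and 1 lower, with a median of 0.39, and the 10 exocytic Rabs had a median of 0.48. With the length trend removed, 2 endosomal Rabs were higher and 9 lower (median -0.45), 4 Golgi Rabs were higher and none lower (median 0.30), and 3 exocytic Rabs were higher and none lower (median 0.11), against 14% and 16.4% of all genes. The difference between compartments was not tested.

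The 8 regulators and effectors included Rab11 effectors that were low together with Rab11b. Rab11fip4, which binds Rab11, was at 11.60, 11.89 and 11.81 in PLP-GFP, 11.04, 10.49 and 10.10 in PDGFRa-GFP and 9.88, 9.35 and 9.59 in NDRG1-eGFP, without overlap. Against PLP-GFP it differed by a log2 fold change of -2.16 ± 0.24 (adjusted p = 9.38e-05). Rab11fip5 (-2.21 ± 0.40, adjusted p = 0.00152) and Rab11fip3, which binds Rab11 and Arf6 (-1.08 ± 0.23, adjusted p = 0.00381), were lower too. Rab11fip2 did not pass, but was called higher with the length trend removed (0.79, adjusted p = 0.0227, in place of 0.33). After removal of the length trend Rab11fip3 missed the threshold (-0.62, adjusted p = 0.0564).

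Rab3gap1, a subunit of the complex that switches Rab3 off and Rab18 on, was lower (-0.52 ± 0.16, adjusted p = 0.0252), a call lost without PLP-GFP replicate 2 or 3 or NDRG1-eGFP replicate 1 or 2 (adjusted p up to 0.102). With the length trend removed Rab3gap1 no longer passed (-0.30, adjusted p = 0.117). It too shares sequence, with 7.52% of its windows found at another locus. Rab3il1, an exchange factor of Rab8 and Rab3, was higher (0.72 ± 0.25, adjusted p = 0.0365), a call lost without any of 5 of the 6 libraries compared, the exception being PLP-GFP replicate 2 (adjusted p up to 0.129). Rab3gap2 and Rab3ip did not pass. Rab3gap2, the other subunit of the Rab3gap1 complex, turned from -0.23 to 0.38 with the length trend removed and was called higher (adjusted p = 0.0369).

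PLP-GFP against PDGFRa-GFP, the labelled pre-myelinating cells against the labelled progenitors, gave few differences. Of the 46 Rab GTPases, 2 were higher and 3 lower in PLP-GFP, where 8.46% and 8.53% of all genes were called higher and lower. The higher genes were Rab43 (1.23 ± 0.22, adjusted p = 0.00921) and Rab23. The lower genes were Rab6b (-1.36 ± 0.29, adjusted p = 0.0157), Rab24 (-0.82 ± 0.23, adjusted p = 0.0362) and Rab4b (-0.51 ± 0.14, adjusted p = 0.034). None of the 3 lower genes passed without PLP-GFP replicate 2, without PLP-GFP replicate 3 or without PDGFRa-GFP replicate 2. The count of higher genes was 8 without PDGFRa-GFP replicate 3, 1 without PDGFRa-GFP replicate 2 or PLP-GFP replicate 3, and 0 without PLP-GFP replicate 2. Removal of the length trend left 2 Rab GTPases higher and 2 lower, against 2.94% and 4.93% of all genes; Rab43 and Rab6b kept their call and the other 3 did not. The other calls after removal were those of Rab4a, higher (0.82, adjusted p = 0.0193, in place of 0.45), and Rab7b, lower (-0.68, adjusted p = 0.0439, in place of -0.41). Beside these, 5 of 6 fibroblast-like, 2 of 7 microglial, 2 of 8 mature oligodendrocyte and 2 of 8 immediate early genes were called lower in PLP-GFP, and their part in the Rab results was not tested. Of the regulators, Rab11fip4 was higher (1.23 ± 0.24, adjusted p = 0.0108), and lost its call without PLP-GFP replicate 2 or 3 (adjusted p up to 0.0628).

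NDRG1-eGFP against PDGFRa-GFP uses the same NDRG1-eGFP libraries as the comparison with PLP-GFP, so the results are not independent. Here 8 Rab GTPases were higher and 5 lower, where 10.7% and 10.4% of all genes were called higher and lower. The 5 lower genes were Rab21, Rab5b, Rab11b, Rab35 and Rab7, whose values are given above. They were called lower in each fit that left out 1 library, and also with the length trend removed, when 5 Rab GTPases were higher and 6 lower against 4.4% and 9.94% of all genes. The gene added to the lower ones was Rab5c, and those added to the higher ones were Rab22a and Rab30 (0.91, adjusted p = 0.0215, in place of 0.55). With the genes that share over 5% of their windows left out, among them Rab5b, Rab7 and Rab11b, the count of lower genes was 2 (Rab21 and Rab35). The higher genes were Rab7b, Rab13 (1.35 ± 0.43, adjusted p = 0.0477), Rab3b, Rab29 (0.88 ± 0.23, adjusted p = 0.0259), Rab23, Rab2b (0.60 ± 0.15, adjusted p = 0.0177), Rab3a (0.59 ± 0.16, adjusted p = 0.0263) and Rab4b (0.52 ± 0.14, adjusted p = 0.0257).

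Rab13, which delivers cargo to cell junctions, was scarce, at 6.07, 5.65 and 6.87 in PDGFRa-GFP, 6.77, 6.87 and 6.66 in PLP-GFP and 7.52, 8.17 and 6.95 in NDRG1-eGFP. Of the 8 higher genes, Rab7b and Rab3b kept their call without any single library, and with Rab23 they kept it with the length trend removed, where the other 5 did not pass. Rab13, Rab29, Rab3a and Rab4b lost it without PDGFRa-GFP replicate 1 or 2 or NDRG1-eGFP replicate 1 or 2 (adjusted p up to 0.161). Rab2b lost it without PDGFRa-GFP replicate 1 or 2 or NDRG1-eGFP replicate 2 (adjusted p up to 0.065). Without PDGFRa-GFP replicate 3, which stood apart from its group, the count of higher genes was 18. It was 5 without PDGFRa-GFP replicate 1, 4 without PDGFRa-GFP replicate 2 or NDRG1-eGFP replicate 2, and 3 without NDRG1-eGFP replicate 1. Of the regulators, Rab11fip4 (-0.93 ± 0.24, adjusted p = 0.0202) and Rab11fip5 (-1.54 ± 0.40, adjusted p = 0.023) were lower and Rab3ip, the exchange factor of Rab8, was higher (0.57 ± 0.17, adjusted p = 0.0423). Rab11fip4 lost its call without PDGFRa-GFP replicate 1 or NDRG1-eGFP replicate 2 or 3, and Rab11fip5 without NDRG1-eGFP replicate 2 or 3 (adjusted p up to 0.0786). Rab3ip lost it without PDGFRa-GFP replicate 1 or 2 or NDRG1-eGFP replicate 1 or 2 (adjusted p up to 0.137). None of these 3 passed once the length trend was removed.

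Across the 3 sorts, the highest group mean was that of NDRG1-eGFP for 30 of the 46 Rab GTPases (65.2%, against 46.1% of all genes). It was that of PLP-GFP for 14 (30.4%, against 37%) and of PDGFRa-GFP for 2 (4.35%, against 16.9%). The lowest was that of PDGFRa-GFP for 21 (45.7%, against 29.1%) and of PLP-GFP for 17 (37%, against 38.6%). It was that of NDRG1-eGFP for 8 (17.4%, against 32.3%). The length trend was not removed from these means. The median SD within a group was 0.28 in PDGFRa-GFP, 0.14 in PLP-GFP and 0.20 in NDRG1-eGFP for the Rab GTPases. For all genes it was 0.33, 0.14 and 0.20.

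The proteins that load, activate and read Rabs were followed as 4 lists. Of 9 genes of GDP dissociation, escort and prenylation, 5 were higher and 2 lower in NDRG1-eGFP against PLP-GFP, where 26.1% and 22.2% of all genes were. The higher genes included Rabggta (0.58 ± 0.13, adjusted p = 0.00502) and Rabggtb (0.67 ± 0.16, adjusted p = 0.00673), the subunits of the enzyme that adds the lipid tail to Rabs. Rabggtb no longer passed once the length trend was removed (0.016, adjusted p = 0.961). Of 38 exchange factors measured, 9 were higher and 18 lower, with a median log2 fold change of -0.39 against 0.08 over all genes. Dennd5a (-1.35 ± 0.12, adjusted p = 2.43e-05) and Dennd2a (-1.47 ± 0.16, adjusted p = 0.000113), both with the DENN domain that activates Rabs, were the leading ones.

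Of 34 GTPase-activating proteins, 4 were higher and 10 lower (26.1% and 22.2% of all genes), led by Tbc1d5 (-0.89 ± 0.12, adjusted p = 0.000285), which acts on Rab7, and Tbc1d30 (-1.97 ± 0.30, adjusted p = 0.000615). Of 49 effectors, 5 were higher and 15 lower. Plekhm2, which links lysosomes to kinesin, was lower (-1.90 ± 0.17, adjusted p = 2.57e-05), and Plin3, a lipid droplet protein that binds Rab9, was higher (1.003 ± 0.117, adjusted p = 0.000141). The balance of these lists moved with the length trend: after its removal the higher and lower counts were 1 and 1, 6 and 8, 4 and 4, and 6 and 5 in the order above, against 14% and 16.4% of all genes.

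PLP-GFP against PDGFRa-GFP called none of the first list, where 8.46% and 8.53% of all genes were higher and lower. It called 7 exchange factors higher and 2 lower, led by Trappc6a (-1.81 ± 0.31, adjusted p = 0.0078) and Mon1b (0.93 ± 0.17, adjusted p = 0.00969), a subunit of the exchange factor of Rab7. It called 7 GTPase-activating proteins higher and 0 lower, led by Tbc1d30 (1.65 ± 0.30, adjusted p = 0.00962) and Tbc1d5 (0.57 ± 0.12, adjusted p = 0.0135), and 6 effectors higher and 2 lower, led by Plekhm2 (1.09 ± 0.17, adjusted p = 0.00527) and Tgfbrap1 (0.75 ± 0.19, adjusted p = 0.0274). Without PLP-GFP replicate 2, Mon1b, Tbc1d30, Tbc1d5 and Tgfbrap1 lost their calls. Tbc1d5 and Tgfbrap1 also lost theirs without PLP-GFP replicate 3, and Tgfbrap1 without PLP-GFP replicate 1 or PDGFRa-GFP replicate 2. Neither of that pair passed once the length trend was removed. The higher and lower counts were then 2 and 2 for exchange factors, 2 and 1 for GTPase-activating proteins and 1 and 3 for effectors, against 2.94% and 4.93% of all genes. NDRG1-eGFP against PDGFRa-GFP called 2, 5, 3 and 3 genes higher and 0, 6, 2 and 4 lower in the 4 lists, against 10.7% and 10.4% of all genes. With the length trend removed these were 0, 0, 5 and 1 higher and 1, 4, 2 and 2 lower, against 4.4% and 9.94%. Plekhm2 was lower (-0.81 ± 0.17, adjusted p = 0.00894) and Plin3 higher (0.61 ± 0.12, adjusted p = 0.00583) in that comparison as well. Other leading genes there were Dennd5a (-0.99 ± 0.12, adjusted p = 0.000334), Trappc10 (-0.92 ± 0.13, adjusted p = 0.00123), Tbc1d8b (-1.72 ± 0.31, adjusted p = 0.00406) and Tbc1d22a (0.68 ± 0.14, adjusted p = 0.00844). Rabggtb (0.52 ± 0.16, adjusted p = 0.0455) and Rabggta (0.42 ± 0.13, adjusted p = 0.0458) were close to the threshold. Rabggta lost its call without any library but PDGFRa-GFP replicate 3, and Rabggtb without any but PDGFRa-GFP replicates 2 and 3.

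The sequences upstream of Rab5a and Rab5b, of Rab11a and Rab11b, and of Rab21 were set side by side to show what they share. Those of Rab7 and Rab7b, which also went opposite ways, are not shown. Promoter windows were found in RefSeq (build GRCm38.p6) for 38 of the 46 Rab GTPases. In the 250 bases before the start, the GC box GGGCGG was present on either strand in 71.7% of the 46 promoters of these genes and in 32.7% of all 32851 promoters. It was present in 75% of the 12 promoters of genes called lower in NDRG1-eGFP against PLP-GFP, in 61.5% of the 13 of genes called higher and in 76.2% of the 21 of the rest. CCAAT was in 45.7% of the Rab promoters and 33.8% of all, and the E-box CACGTG in 6.52% and 6.02%. CG dinucleotides are part of GGGCGG, and the median number of CG pairs per 100 bases was 7.2 in the Rab promoters and 2.4 in all.

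Below are the 200 bases that end before the outermost annotated start of 5 genes: Rab5a and Rab11a, which were not low, and Rab5b, Rab11b and Rab21, which were low in NDRG1-eGFP. Capitals mark matches on either strand to the GC box GGGCGG, the box CCAAT, the E-box CACGTG, the ETS motif CCGGAAG and the CRE TGACGTCA.
Rab5a (chr17:53479034-53479233, plus strand): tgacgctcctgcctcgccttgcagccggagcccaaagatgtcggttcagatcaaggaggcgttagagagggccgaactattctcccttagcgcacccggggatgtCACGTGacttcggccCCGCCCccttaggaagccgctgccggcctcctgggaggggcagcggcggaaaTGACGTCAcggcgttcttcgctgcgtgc
Rab5b (chr10:128696269-128696468, minus strand): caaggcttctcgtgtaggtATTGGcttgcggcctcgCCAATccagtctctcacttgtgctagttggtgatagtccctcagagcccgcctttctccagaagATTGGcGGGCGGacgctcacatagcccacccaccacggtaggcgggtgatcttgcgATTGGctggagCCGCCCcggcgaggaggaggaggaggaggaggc
Rab11a (chr9:64737759-64737958, minus strand): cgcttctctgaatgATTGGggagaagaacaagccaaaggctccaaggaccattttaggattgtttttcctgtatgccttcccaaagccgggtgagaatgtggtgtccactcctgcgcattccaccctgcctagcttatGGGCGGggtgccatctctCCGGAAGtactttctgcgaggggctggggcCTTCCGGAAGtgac
Rab11b (chr17:33760531-33760730, minus strand): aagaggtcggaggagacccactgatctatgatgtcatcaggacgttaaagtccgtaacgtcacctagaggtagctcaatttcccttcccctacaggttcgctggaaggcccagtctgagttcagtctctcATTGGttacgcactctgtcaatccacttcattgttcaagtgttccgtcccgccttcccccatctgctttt
Rab21 (chr10:115315595-115315794, minus strand): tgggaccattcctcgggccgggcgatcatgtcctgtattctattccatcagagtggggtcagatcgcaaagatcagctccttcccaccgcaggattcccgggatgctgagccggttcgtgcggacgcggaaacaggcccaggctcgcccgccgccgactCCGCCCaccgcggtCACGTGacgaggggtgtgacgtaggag
GGGCGG was matched in the windows of Rab5a, Rab5b, Rab11a and Rab21 and not in that of Rab11b. Rab5b held 4 matches to CCAAT, Rab11a 3 to CCGGAAG, and CACGTG was matched in Rab5a and Rab21. No motif was common to the 3 low genes. The windows of Rab11b and Rab21 overlap exons of annotated genes (the predicted genes Gm17251 and Gm10752).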

How the data were processed

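RNA sequencing values of 9 libraries were used, with 3 in each of 3 sorts. The authors deposited 1 table per library of log2 normalized values for 11315 genes. BWA, DESeq2 1.2.5 and build mm10 are named in the submitters' processing notes without their roles. The steps of counting and scaling, strand and depth are not given in the sources used here.

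The values were fitted as deposited with limma 3.58.1 in R 4.3.3, with a trend of variance on level, group means over all 9 libraries and Benjamini-Hochberg adjustment over all genes. A gene was called at an adjusted p under 0.05. A filter of a value of at least 1 in 3 libraries removed no gene. With 3 libraries a group, an exact permutation test of 1 gene cannot go below 0.1. On simulated data limma recovered 97% of genes changed by 2 log2 units and 63% of those changed by 1 in the design of NDRG1-eGFP against PLP-GFP. Of the genes called there, 5.88% were false. Only 200 of 11315 genes were changed, all with a mean of at least 8, and the noise was normal with 1 spread per gene. The rates were thus not measured for scarce genes, or where as many genes differ as in the data (26.1% called higher and 22.2% lower).

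Members were matched to GENCODE M21 for exons and transcript lengths, and 11273 genes had a length. A window of 50 bases was shared when it occurred exactly at another locus. Levels per kilobase divide by the longest coding transcript. Named with values were the 5 called genes with the largest and smallest changes in each comparison without overlap, the 2 with the smallest adjusted p per compartment, members of families that went opposite ways, genes with background in oligodendrocytes, the 3 highest and lowest per kilobase, and the 2 leading genes of each list. The other genes given values were added after their values were seen. The members, compartments and lists were chosen with earlier results of these data known. Same-numbered libraries did not deviate together (correlations -0.23 to 0.09), so numbers were not used as pairs. Alternatives were other scalings, added constants, filters, the length trend, shared genes, the samples in the fit and leaving out each library.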

Additional observations from a re-analysis of the deposited data

How the results depend on the processing

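Depth is unknown and limits every scarce gene. Recentring on the upper quartile and added constants of 0.1, 5 and 100 kept all 70 called results for named genes. All libraries share the same median (10.57) and highest value (21.87), so that recentring could move the values little. Constants of 0.1 and 5 are small beside values near that median. These settings could thus hardly end a call, and no conclusion is drawn from them. The filter removed no gene, so leaving it out is the same fit. Recentring by the median ratio ended 7 of the 70, the replicate block 18, a fit of only the groups compared 13, removal of the length trend 26, and a minimum change of 1 log2 unit 33.

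For NDRG1-eGFP against PLP-GFP, 14 Rab GTPases were higher and 8 lower. The higher count was 9 with the length trend removed, with that and shared genes left out together (an alternative chosen after seeing the data), and with a minimum change of 1 log2 unit. The lower count was 5 with shared genes left out, where Rab5b, Rab7 and Rab11b are themselves not fitted, and 5 with that minimum. The median of 0.23 became 0.07 with the length trend removed and 0.09 with shared genes left out as well. For PLP-GFP against PDGFRa-GFP, the 2 higher and 3 lower became 1 and 1 with the replicate block, in a fit of only the groups compared, and with the minimum fold change. Leaving out 1 library gave 0 to 8 higher and 0 to 4 lower. For NDRG1-eGFP against PDGFRa-GFP, the 8 higher became 4 by the median ratio, 2 with the replicate block, 2 in a fit of only the groups compared, 5 with the length trend removed, 5 with shared genes left out too, and 3 with the minimum fold change. Leaving out 1 library gave 3 to 18. The 5 lower became 2 with shared genes left out and 3 with the length trend removed as well. Rab5b, Rab7 and Rab11b are not fitted in these settings, so the fall is no test of their calls. The median of 0.33 became 0.23 by the median ratio, 0.15 after removal of the length trend and 0.18 with shared genes left out too.

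The direction turned for Rab3a against PLP-GFP with the length trend removed (-0.046, and -0.046 with shared genes left out). In that comparison it also turned with the trend removed for 10 of the 54 members whose differences did not pass, of which Rab28 and Rab4a were then called lower and Rab3gap2 higher. Values under other settings follow for 3 of the 10. Rab5a was at -0.0659 by the median ratio, -0.33 after removal of the length trend, -0.33 with shared genes left out too, and from -0.11 (without NDRG1-eGFP replicate 2) to 0.11 (without NDRG1-eGFP replicate 3) when 1 library was left out. Rab6a was at -0.019 by the median ratio, and at -0.014 after removal of the length trend, with or without shared genes. Rab4a was at -0.56 with the length trend removed, with or without shared genes, which passed (adjusted p = 0.0285 with them), and from -0.074 (without NDRG1-eGFP replicate 1) to 0.24 (without PLP-GFP replicate 1) when 1 library was left out. The cause of these changes was not tested, apart from the counts with shared genes left out, where fewer genes were tested.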

Other observations

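Summed over its members and per kilobase of transcript, each Rab family of paralogs had group means within 1 log2 unit of each other across the sorts. The Rab5 sum was 13.22 ± 0.08 (SD, n = 3) in PLP-GFP, 12.87 ± 0.07 in PDGFRa-GFP and 12.68 ± 0.18 in NDRG1-eGFP, on the log2 scale. The Rab7 sum was 12.47 ± 0.09, 12.39 ± 0.05 and 12.01 ± 0.14 in the same order. The Rab3 sum, of regulated exocytosis, was 11.48 ± 0.16, 11.47 ± 0.27 and 12.09 ± 0.13, and the Rab33 sum, of the Golgi, 12.37 ± 0.01, 12.81 ± 0.36 and 13.07 ± 0.15. The Rab6 sum was 12.94 ± 0.05, 13.19 ± 0.19 and 13.13 ± 0.10, although the share of Rab6b in it was 6.1% ± 0.4 in PLP-GFP, 14.8% ± 7.3 in PDGFRa-GFP and 14.6% ± 1.4 in NDRG1-eGFP. These sums were not tested. They depend on the transcript lengths used, and those of Rab5 and Rab7 include a gene that shares sequence with a pseudogene.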
